A study of Mus musculus with 6 samples.

Results

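The mitochondrial ribosomal proteins described here are the genes whose symbol begins with Mrpl or Mrps followed by a digit. Of 13595 genes in the deposited table, 77 met this rule, 48 named for the large subunit (Mrpl) and 29 for the small subunit (Mrps). RNA came from primary CD31-positive cells, selected by an endothelial surface protein, of the livers of C57BL6/J mice aged 4 weeks. The cells were cultured and then received 100 µM indoxyl sulfate, a tryptophan metabolite that activates the aryl hydrocarbon receptor, with hypoxia and nutrient deprivation for 6 hours. All 6 libraries had this treatment, so its own effect was not analysed here, and the one comparison is between 3 libraries labelled female and 3 labelled male (replicates 4, 5 and 6 of each). The labels do not say whether replicates are separate mice, cultures or wells, so each p-value measures the spread between these libraries, which may be technical.

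The mitochondrial ribosome translates the few messages of the mitochondrial genome, which encode core subunits of the respiratory chain and of ATP synthase. Its ribosomal RNAs are made inside the organelle, while all of its proteins are encoded in the nucleus, made in the cytosol and imported. Some of them descend from bacterial ribosomal proteins, and others, called mitochondria-specific, mostly have no bacterial counterpart. Expression of the nuclear genes is known to depend on factors such as NRF1 and the ETS factor GABP. The deposited table held 0 mitochondrially encoded genes, so the ribosomal RNAs and the products of the ribosome were not analysed here.

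The libraries held 22303270 to 31189363 reads in all, and each member had between 116 and 3587 reads in every library. The Y-linked genes Ddx3y, Uty, Eif2s3y and Kdm5d were read in every library labelled female, at normalised read counts from 17.6 (Kdm5d) to 57.7 (Ddx3y). Ddx3y and Uty were not called, at 91.5% and 89.6% of the mean of the libraries labelled male, and Eif2s3y and Kdm5d were lower, at 51.3% and 54.8%. Whether the libraries labelled female also hold RNA of male cells was not tested, so each difference compares libraries as they are labelled. Xist followed the labels, at 0.124 to 0.458 in the libraries labelled male and 234 to 324 in those labelled female. Pecam1, which encodes CD31, was at 406 ± 16.2 and 73.9 ± 0.540 (SD, n = 3) in the libraries labelled male and female. Of 10 endothelial markers, 8 were lower in the libraries labelled female, only Eng was higher and Kdr was not called (Vwf, one of the lower, passed the filter on low values only through the libraries labelled male, and without it 7 of 9 were lower), and their summed count was 2176 to 2271 against 1158 to 1221. The sums were 489 to 528 against 7.08 to 8.84 for 6 sinusoidal endothelial markers, of which Stab2, Clec4g and Fcgr2b were at or near 0 in all 6 libraries. They were 2847 to 3635 against 2600 to 3023 for 11 mesenchymal markers (3 higher, 8 lower, of which Lum passed the filter only through the libraries labelled male) and 1637 to 2484 against 509 to 610 for 5 cholangiocyte markers (1 higher, 3 lower of 4 tested). They were 11.9 to 14.7 against 15.1 to 17.8 for 5 macrophage markers in the table (2 higher, 1 lower of 3 tested, with Emr1 at 0) and 0.871 to 1.11 against 0.166 to 0.190 for 4 hepatocyte markers (none tested). Of 6 lymphocyte markers 0 had a row, and 7 proliferation genes summed to 1034 to 1251 against 1216 to 1379 (1 higher, 3 lower). The part of these differences in the results on the ribosomal proteins was not tested.

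Most genes of the mitochondrial ribosome differed little between the groups, and those that did differ went in both directions. All 77 members were tested. With limma on log2(value + 1) and a Benjamini-Hochberg adjusted p under 0.05 over all tested genes, 20 members were higher in the libraries labelled female, 12 were lower and 45 were not called. Over all 12568 genes tested, 69.3% were called (34.6% higher and 34.6% lower), against 41.6% of the members. The 6 libraries fell into groups that did not overlap for 39 members (50.6%), against 74.1% of all tested genes. The median log2 fold change was 0.01 for the members and 0.01 for all tested genes, while the median absolute log2 fold change was 0.18 for the members and 0.46 for all. Of the members, 48 (62.3%) differed by less than 0.25 on the log2 scale, against 30.4% of all tested genes. A log2 fold change of at least 1 was reached by 0 members and by 20.6% of all tested genes. Among the 7519 genes whose mean level lay within the range of the members, 67.9% were called and 18.0% reached a log2 fold change of 1. In bulk RNA, fewer cells of a type and less RNA per cell cannot be told apart.

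**Figure D1:**
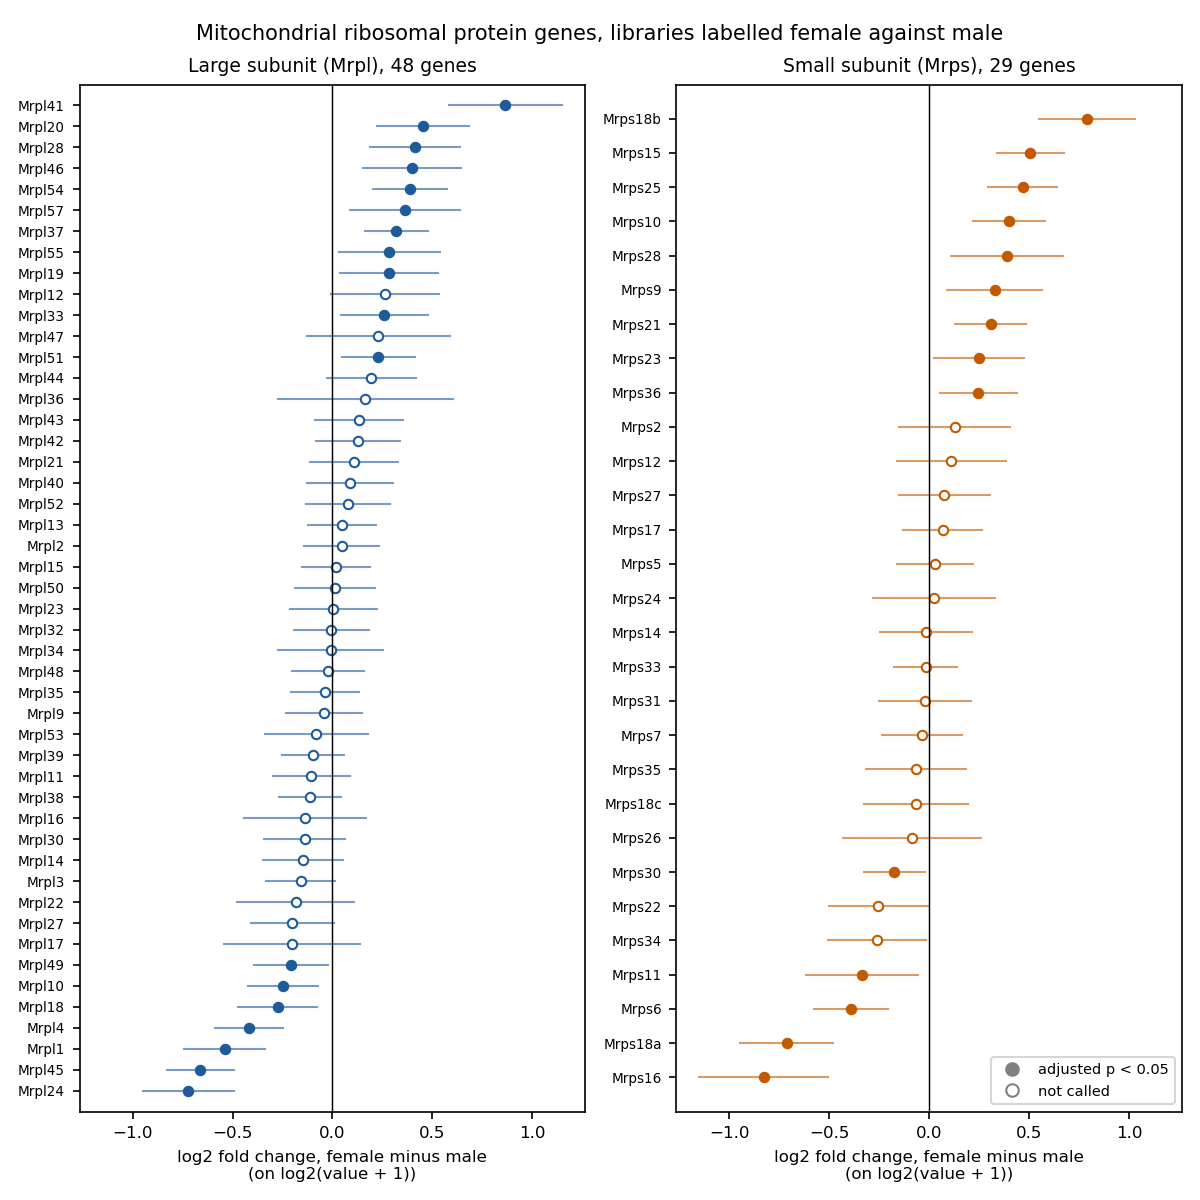
Log2 fold change of each of the 77 members, libraries labelled female against male, with bars for the 95% interval and filled points for called members (limma, adjusted p under 0.05), large subunit on the left and small subunit on the right. The members run from -0.83 for Mrps16 to 0.86 for Mrpl41, and the 45 that were not called lie between -0.26 and 0.26.

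**Figure D2:**
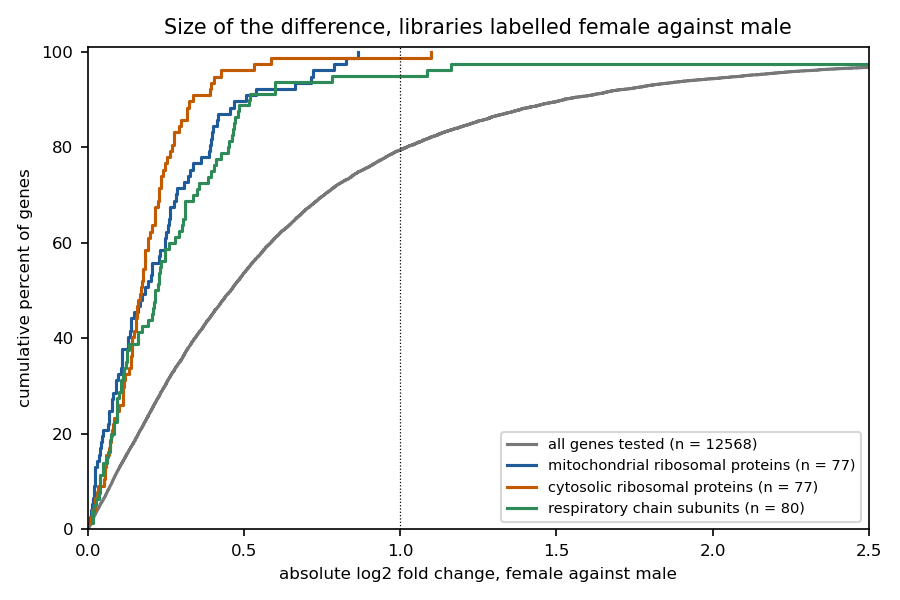
Cumulative percent of genes (y axis) by absolute log2 fold change (x axis) for all tested genes, the mitochondrial ribosomal proteins, the cytosolic ribosomal proteins and the nuclear respiratory chain subunits. The curve of the 77 mitochondrial ribosomal proteins ends below 1, where 20.6% of all tested genes were called with a larger difference.

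By subunit, 11 of 48 Mrpl genes were higher and 7 lower (37.5% called), and 9 of 29 Mrps genes were higher and 5 lower (48.3% called). Without male replicate 4 these counts were 9 higher and 12 lower for Mrpl and 8 and 8 for Mrps. Without female replicate 4 or 5 the higher Mrpl genes numbered 6, without female replicate 5 the higher Mrps genes 5, without male replicate 6 the lower Mrpl genes 4, and without any 1 library other than male replicate 4 the lower Mrps genes 3. The corresponding counts over all tested genes fell as well, as given in part with male replicate 4 further on. The 30 conserved large subunit proteins, those with a universal or bacterial family, gave 5 higher and 5 lower with a median log2 fold change of -0.02 (from -0.06 without male replicate 4 to 0.03 with quantile normalization). The higher count was 3 with DESeq2 and without male replicate 4 or female replicate 6, and 2 without female replicate 4 or 5, and the lower count was 10 without male replicate 4 and 3 without male replicate 6. Among 19 mitochondria-specific large subunit proteins (Ict1, the current Mrpl58, included) 6 were higher and 2 lower, with a median of 0.12 (0.04 without male replicate 4 and 0.19 with quantile normalization). The lower count was 1 with quantile normalization, with the GC and length correction added after seeing the data, and without any 1 library other than male replicate 4. Of 16 conserved small subunit proteins 5 were higher and 3 lower (median 0.05, from -0.0073 without male replicate 4 to 0.14 with the GC and length correction), and the higher count was 3 without male replicate 6 or female replicate 5. Of 11 in the list of mitochondria-specific small subunit proteins, 4 were higher (Mrps18b, Mrps23, Mrps25 and Mrps36) and 0 lower, with a median of -0.02 (from -0.03 to 0.05 over the alternatives). Of these 4, Mrps18b has a bacterial relative and the product of Mrps36 is now known as part of a metabolic enzyme, so neither matches the name of the list. The higher count was 2 without male replicate 5 or any 1 library labelled female, and without male replicate 4 the list gave 3 higher and 3 lower. The lower count was 1 with RLE size factors, DESeq2 and the GC and length correction, and 2 with edgeR. Mrps18a and Mrps30 stand outside these lists, because both proteins sit in the large subunit in spite of their symbols. The members lie on 17 chromosomes and 0 of them lie on X.

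In the S18 family, Mrps18a was lower, Mrps18b was higher and Mrps18c was not called. Mammals carry Mrps18a, Mrps18b and Mrps18c, which all descend from the bacterial protein S18, and their products occupy different places: that of Mrps18a in the large subunit and those of Mrps18b and Mrps18c in the small subunit. Mrps18a had normalised read counts of 23.5, 27.8 and 28.8 in male replicates 4, 5 and 6 and 14.7, 16.8 and 16 in the corresponding libraries labelled female. Every library labelled male lay above every library labelled female. Its log2 fold change was -0.71 with SE 0.10 (adjusted p 0.000309, limma). Mrps18b was the reverse, at 15.5, 17.5 and 19 in the libraries labelled male and 33.2, 31 and 27.6 in those labelled female. Here each library labelled female was higher than each labelled male, and the log2 fold change was 0.79 with SE 0.10 (adjusted p 0.000209, limma). Where 3 values stand on either side of the word against, here and in what follows, they are those of replicates 4, 5 and 6 labelled male and then of replicates 4, 5 and 6 labelled female. Mrps18c read 12.1, 14.6 and 15.6 against 14.3, 13.2 and 12.5, and its groups overlapped, with a log2 fold change of -0.07 with SE 0.11 (adjusted p 0.616, limma) and a 95% interval from -0.33 to 0.19. Of the 50-base words in the transcripts of Mrps18b, 14.6% also occur in another gene, and 30.5% of its exonic bases overlap Gm16279, so its count is the less certain of the pair.

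Mrps18a and Mrps18b both lie on chromosome 17. The stretch upstream of the RefSeq start of Mrps18a is shown because it belongs to the lower gene of this pair, and capitals mark a match to an NRF1, ETS or YY1 motif (spelled out with the motif counts further on).
Mrps18a, GRCm38.p6 chr17:46110754-46110985, plus strand: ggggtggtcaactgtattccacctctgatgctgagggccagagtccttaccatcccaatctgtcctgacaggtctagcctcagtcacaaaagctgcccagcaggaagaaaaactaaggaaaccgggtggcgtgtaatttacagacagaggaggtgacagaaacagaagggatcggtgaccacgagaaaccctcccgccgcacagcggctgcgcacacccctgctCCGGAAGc
The ETS letters of Mrps18a begin 26 bases before its start. All 250 bases before the start of Mrps18b lie in annotated exons of Ppp1r10 and are not printed, and they hold no match to the NRF1, ETS or YY1 letters.

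**Figure D3:**
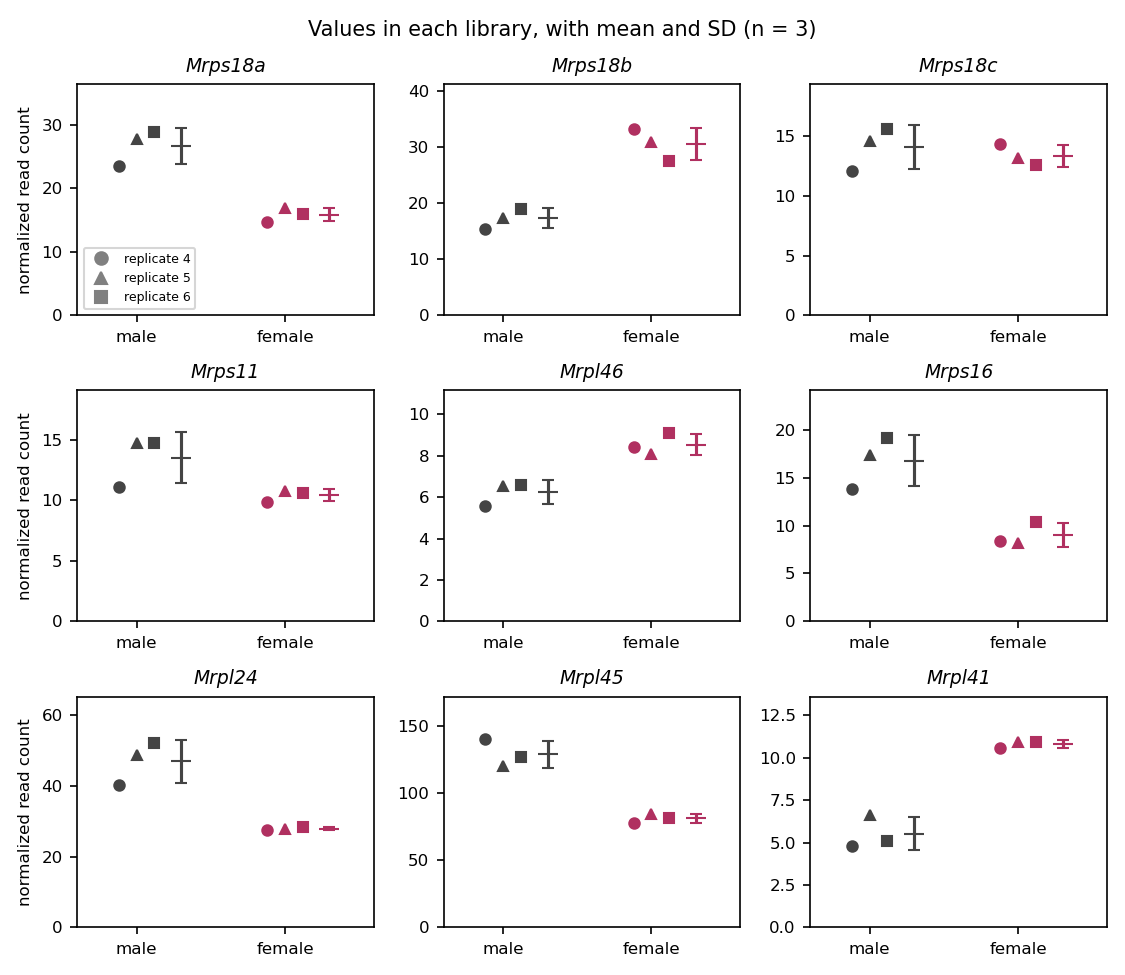
Normalised read count in each of the 6 libraries (y axis) for 9 members, with 1 point per library and the group mean with its SD beside them. Mrps18a is at 23.5 to 28.8 in the libraries labelled male and 14.7 to 16.8 in those labelled female, and Mrps18b at 15.5 to 19.0 and 27.6 to 33.2.

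Lower large subunit genes included the member with the highest normalised count. Mrpl45, whose protein lies near the exit tunnel and holds the ribosome at the inner membrane, read 140.2, 120.5 and 127 in the libraries labelled male and 77.9, 84.4 and 81.2 in those labelled female. The lowest library labelled male stood well above the highest labelled female, and the log2 fold change was -0.66 with SE 0.07 (adjusted p 6.6e-05, limma). Mrpl24, of the L24 family, read 40.2, 48.8 and 52.1 against 27.6, 27.8 and 28.5. The libraries labelled female were close together and the groups far apart, with a log2 fold change of -0.72 with SE 0.10 (adjusted p 0.000255, limma). Of the exonic bases of Mrpl24, 26.3% overlap Rrnad1, which was itself lower (log2 fold change -0.40, SE 0.10, limma adjusted p 0.0079).

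Mrpl1, which forms the flexible L1 stalk by which transfer RNA leaves, read 24.8, 22 and 25.1 against 15.2, 16.3 and 17, a log2 fold change of -0.54 with SE 0.09 (adjusted p 0.000719, limma). Mrpl4, a protein that lines the exit tunnel, read 32.3, 35 and 33.7 in the libraries labelled male and 23.7, 25.4 and 25.8 in those labelled female, a log2 fold change of -0.42 with SE 0.07 (adjusted p 0.00109, limma). Both genes had all 3 libraries labelled female below all 3 labelled male. Mrpl4 was not called with the GC and length correction (-0.17, limma adjusted p 0.0753). Mrpl18, of the L18 family, read 37.4, 34.9 and 37.5 against 27, 31.6 and 31.8 (log2 fold change -0.27, SE 0.09, limma adjusted p 0.0196). Mrpl10, at the base of the stalk that binds translation factors, read 42.1, 45.5 and 45 against 40.0, 35 and 36.3 (log2 fold change -0.25, SE 0.08, limma adjusted p 0.0181). The groups were close for this last pair, with the nearest libraries 3.08 counts apart for Mrpl18 and 2.09 for Mrpl10. Mrpl18 was not called without male replicate 6 (-0.26) or female replicate 4 (-0.20). Mrpl10 was not called without male replicate 5 (-0.23) or 6 (-0.23), or without female replicate 5 (-0.21) or 6 (-0.23). Mrpl49, which is mitochondria-specific, was the remaining lower large subunit gene, at a log2 fold change of -0.21 (limma adjusted p 0.0489), and it was not called without any 1 library other than male replicate 4 (from -0.23 to -0.17).

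The upstream sequence of Mrpl45 on chromosome 11 is shown because it is the most abundant member by count and the only one of the genes printed here with NRF1 letters, which stand in capitals.
Mrpl45, GRCm38.p6 chr11:97315466-97315715, plus strand: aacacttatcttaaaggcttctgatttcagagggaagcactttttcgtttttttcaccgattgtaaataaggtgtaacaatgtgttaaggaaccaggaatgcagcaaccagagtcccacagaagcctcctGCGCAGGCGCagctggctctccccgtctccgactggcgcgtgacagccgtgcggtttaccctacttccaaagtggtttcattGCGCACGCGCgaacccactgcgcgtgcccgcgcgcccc
The pair of NRF1 matches begin 120 and 38 bases before the start.

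Among the large subunit genes that were higher, Mrpl41 had the largest difference of all members. Mrpl41, a mitochondria-specific protein, read 4.81, 6.63 and 5.12 in the libraries labelled male and 10.5, 10.9 and 10.9 in those labelled female, at 116 to 254 reads per library. The libraries labelled female were nearly equal and the mean was 195.5% of that of the libraries labelled male, with a log2 fold change of 0.86 with SE 0.12 (adjusted p 0.000309, limma). Of its 50-base words, 11.3% occur in another gene. The stretch before its start on chromosome 2 is given as that of the largest difference, and it holds no match to the NRF1, ETS or YY1 letters, so it has no capitals.
Mrpl41, GRCm38.p6 chr2:24975099-24975348, minus strand: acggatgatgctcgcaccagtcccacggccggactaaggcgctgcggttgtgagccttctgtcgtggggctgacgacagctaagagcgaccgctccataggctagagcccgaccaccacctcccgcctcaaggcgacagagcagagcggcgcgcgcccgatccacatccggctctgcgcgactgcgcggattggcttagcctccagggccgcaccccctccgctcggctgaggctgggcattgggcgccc

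Mrpl20, whose bacterial relative is needed early in assembly of the large subunit, read 16.5, 20.0 and 19.5 against 26.4, 27.4 and 23.8 (log2 fold change 0.45, SE 0.10, limma adjusted p 0.00363). Mrpl28, of the L28 family, read 18, 15.5 and 19.1 against 22.2, 25 and 23.6 (log2 fold change 0.41, SE 0.10, limma adjusted p 0.00561). In both genes the groups did not overlap, and the spread within a group was about as wide in one label as in the other. The mitochondria-specific Mrpl54 read 18, 19.1 and 19.8 against 23.7, 26.1 and 25.6 (log2 fold change 0.39, SE 0.08, limma adjusted p 0.00273). Mrpl57, also mitochondria-specific, read 9.29, 12.7 and 10.6 against 14.7, 14.4 and 13.3 (log2 fold change 0.36, SE 0.12, limma adjusted p 0.025). Its nearest libraries were 0.638 apart, and it was not called without male replicate 6 (0.35), female replicate 4 (0.33) or female replicate 5 (0.35). Mrpl37, Mrpl55, Mrpl19, Mrpl33 and Mrpl51 were also higher, with log2 fold changes of 0.32, 0.28, 0.28, 0.26 and 0.23. All of these but Mrpl37 lost the call without 1 library or another. For Mrpl55 this held for each library except male replicate 6 (values from 0.20 to 0.30), and for Mrpl19 for male replicates 4 and 5 and female replicates 4 and 5 (0.18 to 0.31). Mrpl33 lost it without any 1 library labelled female (0.25 to 0.27), as did Mrpl51, which also lost it without male replicate 5 (0.21 to 0.25). Of the exonic bases of Mrpl19, 36.0% overlap Gcfc2, which was not called (log2 fold change -0.04, limma adjusted p 0.76).

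Of the small subunit genes, Mrps16 had the largest decrease of all members. Mrps16, of the bacterial S16 family, read 13.9, 17.3 and 19.2 in the libraries labelled male and 8.38, 8.18 and 10.4 in those labelled female, a log2 fold change of -0.83 with SE 0.14 (adjusted p 0.000864, limma). The mean of the libraries labelled female was 53.6% of that of the libraries labelled male. Mrps6, of the S6 family, read 43.3, 46.4 and 48.7 against 34.3, 37.7 and 32.7 (log2 fold change -0.39, SE 0.08, limma adjusted p 0.00245). Shared 50-base words made up 17.3% of its total, and 19.9% of its exonic bases overlap Gm49711. Mrps30, which sits in the large subunit, read 39.9, 37.3 and 38.7 against 34, 34.7 and 33.6, a log2 fold change of -0.17 with SE 0.07 (adjusted p 0.0421, limma). This was the smallest called difference of a member, with the groups still apart in all 6 libraries. It was not called without any 1 library other than male replicate 4 (from -0.20 to -0.16).

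Small subunit genes that were higher were led, after Mrps18b, by Mrps15. It belongs to the S15 family, which binds the ribosomal RNA of the small subunit, and read 30.2, 31.2 and 27.6 against 43.2, 41.5 and 42.9 (log2 fold change 0.51, SE 0.07, limma adjusted p 0.000342). The mitochondria-specific Mrps25 read 29.8, 29.1 and 29.9 against 44.7, 38.9 and 40.6 (log2 fold change 0.47, SE 0.08, limma adjusted p 0.000631). For both genes, every library labelled female lay above every library labelled male. Of the exonic bases of Mrps25, however, 69.8% overlap Nr2c2, which was itself higher (log2 fold change 0.42, SE 0.16, limma adjusted p 0.0463), and how the counting divided such reads is not given in the sources used here. Mrps10, of the S10 family, read 20.7, 23.5 and 22.6 against 30.4, 29 and 29.4 (log2 fold change 0.40, SE 0.08, limma adjusted p 0.00196). Mrps28 read 5.93, 7.24 and 5.79 against 9.34, 8.75 and 7.65 (log2 fold change 0.39, SE 0.12, limma adjusted p 0.0193), where the nearest libraries were 0.401 apart. It was not called without male replicate 6 (0.34), female replicate 4 (0.33) or female replicate 5 (0.37). Mrps9, of the S9 family, read 33.5, 28.1 and 26.3 against 34.7, 40.0 and 36 (log2 fold change 0.33, SE 0.10, limma adjusted p 0.0208), and its nearest libraries were 1.19 apart. It was not called without male replicate 5 (0.30), male replicate 6 (0.26) or female replicate 5 (0.27). Mrps21 was higher by 0.31, Mrps23 by 0.25 and Mrps36 by 0.25 on the log2 scale, and Mrps23 passed the threshold narrowly (limma adjusted p 0.0498). Mrps23 was not called without any 1 library other than male replicate 6 (0.17 to 0.28), and Mrps36 was not called without male replicate 5 or without any 1 library labelled female (0.23 to 0.27). Mrps36 carries a ribosomal name, but its product is now known as a subunit of the 2-oxoglutarate dehydrogenase complex.

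One pair of neighbours on chromosome 7 also differed in opposite directions. Mrps11, of the S11 family, and the mitochondria-specific Mrpl46 are transcribed away from each other. Their RefSeq starts are at 78783131 on the plus strand and 78783089 on the minus strand, with 41 bases between them. Of these, 12 lie in the first exon of Mrps11 in GENCODE, and the other 29, outside the annotated exons of both genes, are shown because they separate the pair.
Between Mrpl46 and Mrps11, GRCm38.p6 chr7:78783090-78783118, plus strand: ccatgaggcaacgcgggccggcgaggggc
Mrps11 read 11.1, 14.8 and 14.7 against 9.88, 10.8 and 10.6, a log2 fold change of -0.34 with SE 0.12 (adjusted p 0.0373, limma). Mrpl46 read 5.56, 6.56 and 6.60 against 8.42, 8.09 and 9.12, a log2 fold change of 0.40 with SE 0.11 (adjusted p 0.00951, limma). The groups did not overlap for either gene, though male replicate 4 lay only 0.328 above the highest library labelled female for Mrps11. Mrps11 was not called without any 1 library other than male replicate 4 (from -0.36 to -0.27), and Mrpl46 was called in each case. In GENCODE, a further Mrpl46 transcript begins inside Mrps11, so that the annotations overlap over 8.0% of the exonic bases of Mrps11 and 12.2% of those of Mrpl46.

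The 45 members that were not called had log2 fold changes from -0.26 to 0.26. Their 95% intervals lay within 0.5 of 0 on either side for 39 of the 45, and the widest bounds over all 45 were -0.545 and 0.601, so larger differences than these were not covered by any of the intervals. For 7 of them the groups did not overlap although the test was not passed, with the libraries labelled female below the others for Mrps34, Mrpl27, Mrpl3, Mrpl14 and Mrpl38 and above them for Mrpl44 and Mrpl12. Large subunit members with a negative value were Mrpl17 (-0.20), Mrpl27 (-0.20), Mrpl22 (-0.18), Mrpl3 (-0.16), Mrpl14 (-0.15), Mrpl30 (-0.14), Mrpl16 (-0.14), Mrpl38 (-0.11), Mrpl11 (-0.11), Mrpl39 (-0.10), Mrpl53 (-0.08), Mrpl9 (-0.04), Mrpl35 (-0.04), Mrpl48 (-0.02), Mrpl34 (-0.0093) and Mrpl32 (-0.0063). Those with a positive value were Mrpl23 (0.0052), Mrpl50 (0.01), Mrpl15 (0.02), Mrpl2 (0.05), Mrpl13 (0.05), Mrpl52 (0.08), Mrpl40 (0.09), Mrpl21 (0.11), Mrpl42 (0.13), Mrpl43 (0.13), Mrpl36 (0.17), Mrpl44 (0.19), Mrpl47 (0.23) and Mrpl12 (0.26). Mrpl12, the protein of the stalk that recruits translation factors, came close to the threshold with an adjusted p of 0.0739 (limma).

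Small subunit members that were not called and had a negative value were Mrps34 (-0.26), Mrps22 (-0.26), Mrps26 (-0.09), Mrps18c (-0.07), Mrps35 (-0.06), Mrps7 (-0.04), Mrps31 (-0.02), Mrps33 (-0.02) and Mrps14 (-0.02). Those with a positive value were Mrps24 (0.02), Mrps5 (0.03), Mrps17 (0.07), Mrps27 (0.08), Mrps12 (0.11) and Mrps2 (0.13). The spread between libraries differed widely among the members that were not called. Their coefficients of variation in the libraries labelled male ran from 1.22% (Mrpl38) to 28.7% (Mrpl36), and in those labelled female from 0.779% (Mrps17) to 14.5% (Mrpl34). Mrpl36 read 5.85, 10.1 and 10.3 against 9.50, 10.4 and 9.07, with male replicate 4 far below the rest. Mrps33 was among the tightest, at 28.4, 29.2 and 29.8 in the libraries labelled male and 28.2, 29.1 and 28.9 in those labelled female. Mrpl53 and Mrps34 are among the least certain, as 88.0% and 77.8% of their exonic bases overlap another annotated gene. Over all members, 18 had more than 5% of their 50-base words in another gene and 25 had more than 5% of their exonic bases under another annotation. Of the called members, Mrpl10, Mrpl19, Mrpl33, Mrpl49, Mrpl51, Mrpl57, Mrps11 and Mrps36 also lost the call with the GC and length correction (absolute values from 0.13 to 0.22). Mrpl18, Mrpl49 and Mrps30 lost it with quantile normalization. Mrpl19, Mrpl55 and Mrps23 lost it with DESeq2, the last pair also with edgeR, Mrpl55 with the pseudocount of 0.1, and Mrps23 with RLE size factors, without the filter or with the filter of 10 reads.

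Per kilobase of the principal transcript, the level of a member, as the mean of the group means, ran from 2.64 for Mrpl47 to 61.4 for Mrps21, with a median of 15.9. Mrps26 and Mrps17 came next from below, at 3.22 and 3.57 per kilobase, and Mrpl33, Mrpl52 and Mrpl42 from above, at 57.2, 55.8 and 54.9. Most of the proteins are known to enter the particle as a single copy, while the RNA levels per length were far from equal. The length of the transcript that these cells use was not measured, so the order of neighbours is uncertain.

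The summed normalised count of all members was 1751, 1896 and 1929 in the libraries labelled male and 1817, 1853 and 1819 in those labelled female. On this scale the ranges overlap through male replicate 4 alone, since male replicates 5 and 6 lay above every library labelled female. As a share of all reads of a library, the members made up 0.152%, 0.174% and 0.175% in the libraries labelled male. The shares were 0.173%, 0.175% and 0.172% in those labelled female, so that order of the libraries did not hold for the share of reads. By symbol, so that Mrps18a and Mrps30 count with the small subunit, the balance of the subunits differed slightly. The mean count per Mrps gene divided by that per Mrpl gene was 0.820, 0.838 and 0.839 in the libraries labelled male and 0.921, 0.917 and 0.887 in those labelled female. It was therefore 0.832 ± 0.0107 against 0.908 ± 0.0186 (SD, n = 3), and the groups did not overlap. With Mrpl45 left out, the ratios were 0.912, 0.908 and 0.911 against 0.966, 0.966 and 0.932. The distance between the groups thus narrowed when a single abundant gene was removed, and it did not close. These ratios are a description of the libraries and were given no test.

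Male replicate 4 stood apart from the other libraries of its label. The median absolute log2 difference between libraries was 0.186 and 0.185 from male replicate 4 to male replicates 5 and 6, but 0.0744 between those and 0.0803 to 0.112 among the libraries labelled female. It held the lowest of the 3 values labelled male for 59 of 77 members (76.6%), against 45% of all tested genes, and the highest for 8 members. Without it, 17 members were higher and 20 lower by the same test, when 74.8% of 12187 tested genes were called. Of these 37, 29 had been called with all libraries, each with the same sign. The 8 added calls were all lower: Mrpl17, Mrpl22, Mrpl27, Mrpl3, Mrpl30, Mrps22, Mrps26 and Mrps34. Mrpl17 shows the pattern, at 26, 40.2 and 36.3 in the libraries labelled male and 31.2, 28.3 and 27.7 in those labelled female, and its log2 fold change moved from -0.20 to -0.38 without male replicate 4. Mrpl19, Mrpl55 and Mrps23 were no longer called, and the median log2 fold change of the members was -0.03. Other libraries also moved the counts: 12 members were higher without female replicate 4, 11 without female replicate 5, and 7 were lower without male replicate 6. The counts over all tested genes moved too, from 4353 higher and 4351 lower of 12568 with all libraries. Higher genes numbered 3555 of 12217 without female replicate 4 and 3497 of 12222 without female replicate 5. Lower genes numbered 3607 of 12176 without male replicate 6. Of the 32 called members, 18 (11 higher and 7 lower) were called with each of the 6 libraries left out in turn.

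**Figure D4:**
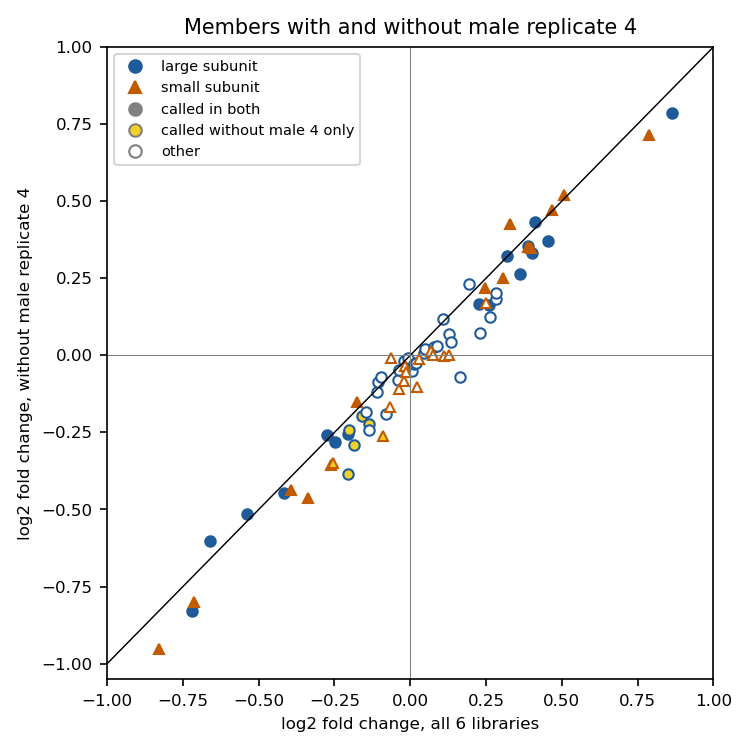
Log2 fold change of each member with all 6 libraries (x axis) and without male replicate 4 (y axis), with circles for Mrpl and triangles for Mrps genes. The 8 yellow points are called only without that library and all lie below 0, as Mrpl17 at -0.20 and -0.38.

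Besides Ict1, counted above with the large subunit and not called (log2 fold change 0.12, limma adjusted p 0.221), 5 proteins of the mitochondrial ribosome carry other symbols, and 2 of these 5 were lower (1 with the GC and length correction). Dap3, a GTP-binding protein of the small subunit first described in cell death, read 62.7, 52.8 and 56.5 against 45.7, 44.7 and 43.4 (log2 fold change -0.35, SE 0.08, limma adjusted p 0.00351). Its groups did not overlap. Gadd45gip1, a large subunit protein near the exit tunnel, was the other one that was lower. Aurkaip1 (-0.23), Chchd1 (-0.06) and Ptcd3 (0.01), all of the small subunit, were not called.

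Factors that assemble the mitochondrial ribosome or modify its RNA gave 6 higher and 5 lower of 27, with a median log2 fold change of 0.04 (8 and 8, median -0.08, without male replicate 4). Quantile normalization gave 9 and 3 (median 0.13), and 3 and 3 were called without female replicate 6, 5 and 3 without female replicate 4 and 7 and 3 without male replicate 5. Over the alternatives the median ran from -0.08 without male replicate 4 to 0.14 without male replicate 6. Mpv17l2, an inner membrane protein needed for assembly, read 8.58, 12.4 and 10.7 against 21.2, 20.1 and 19.1 (log2 fold change 0.88, SE 0.13, limma adjusted p 0.00035). Rnmtl1, the current Mrm3, which methylates the large ribosomal RNA, read 1.87, 1.94 and 2.30 against 4.73, 3.80 and 4.37 (log2 fold change 0.80, SE 0.12, limma adjusted p 0.000413). The libraries labelled female were about doubled for this pair. The largest difference in the other direction was that of Mterfd2, the current Mterf4, which brings a methyltransferase to the ribosome. It read 24.1, 23.5 and 24 against 9.75, 8.44 and 10.8 (log2 fold change -1.23, SE 0.10, limma adjusted p 1.34e-05), a difference larger than that of any ribosomal protein here. The symbols Rnmtl1 and Mterfd2 were not matched in GENCODE, so overlaps and shared 50-base words of these genes were not checked. Malsu1, which keeps the unfinished large subunit from joining the small one, read 10.6, 10.5 and 11 against 7.10, 7.29 and 7.46 (log2 fold change -0.50, SE 0.09, limma adjusted p 0.00117). Its exonic bases overlap Igf2bp3 over 40.5%, and Igf2bp3 was higher (log2 fold change 2.05, limma adjusted p 1.41e-06).

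Translation factors and related proteins were higher in 7 and lower in 3 of 20 tested (median 0.12, and 0.19 with quantile normalization or without male replicate 6). Without male replicate 6 or female replicate 6 they were higher in 5 and lower in 1. Lrpprc, which stabilises mitochondrial messages, read 66.5, 50.8 and 49.4 against 93.8, 84.8 and 102 (log2 fold change 0.75, SE 0.12, limma adjusted p 0.000634), and Mtfmt, which formylates the initiator, read 7.09, 6.14 and 6.32 against 11.5, 11.6 and 10.9 (log2 fold change 0.72, SE 0.10, limma adjusted p 0.000238). Oxa1l, which inserts new chains into the inner membrane, was lower at 40.2, 44.1 and 47.7 against 30.3, 31.7 and 32 (log2 fold change -0.48, SE 0.08, limma adjusted p 0.000853). So was Pet112, the current Gatb, a subunit of the enzyme that completes glutaminyl transfer RNA, at 5.52, 6.02 and 6.99 against 4.40, 4.91 and 3.32 (log2 fold change -0.47, SE 0.14, limma adjusted p 0.019). The groups did not overlap in any of these 4 genes. Pet112 was not called without male replicate 6 (-0.39) or female replicate 6 (-0.34), and its symbol was not matched in GENCODE, so its overlaps were not checked.

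Of the 17 mitochondrial aminoacyl-tRNA synthetases, 3 were higher and 6 lower with a median of -0.19, while quantile normalization gave 5 higher and 3 lower with a median of -0.13 and the GC and length correction 4 and 3 with a median of -0.08. Without any 1 library labelled female 16 were tested, because Mars2 then fell below the filter, and of these 1 was higher without female replicate 4 and 3 were lower without female replicate 5 or 6. Of all 17, 3 were lower without male replicate 5 or 6. Mars2, the methionyl enzyme, was weakly expressed and read 0.456, 0.496 and 0.706 against 5.40, 4.11 and 4.37 (log2 fold change 1.85, SE 0.13). It passed the filter only through the libraries labelled female, where it is high, so its place in the count of higher genes supports nothing about the list, and with no filter its limma adjusted p was 9.61e-06. Pars2, for proline, read 1.99, 1.22 and 1.09 against 2.57, 2.43 and 2.94 (log2 fold change 0.60, SE 0.16, limma adjusted p 0.00859). Both have low counts, where log2(value + 1) understates the change. Yars2, for tyrosine, was lower at 14.4, 15.1 and 15.9 against 8.80, 10.6 and 10.8 (log2 fold change -0.55, SE 0.10, limma adjusted p 0.00167), and Vars2, for valine, at 20.4, 23.4 and 21.6 against 17.8, 16.2 and 14.1 (log2 fold change -0.43, SE 0.10, limma adjusted p 0.00659). Vars2 was not called with the GC and length correction (-0.22, limma adjusted p 0.0694).

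In mitochondrial transcription and RNA processing, 7 of 17 genes were higher and 3 lower, with a median of 0.25 (0.10 without male replicate 4 and 0.15 with the GC and length correction). Fastkd5, which acts on messages that lack flanking transfer RNAs, read 4.89, 6.86 and 6.36 against 12.5, 14.7 and 15.3 (log2 fold change 1.11, SE 0.14, limma adjusted p 0.000128), but 64.7% of its 50-base words are shared and 65.2% of its exonic bases overlap Ubox5 (log2 fold change 0.77, limma adjusted p 0.000253). Trmt10c read 7.92, 10.2 and 10.1 against 20.3, 22.5 and 18.6 (log2 fold change 1.05, SE 0.12, limma adjusted p 9.13e-05), while Hsd17b10 read 62.5, 66.7 and 65.8 against 42.9, 46.1 and 46.3 (log2 fold change -0.52, SE 0.06, limma adjusted p 0.000148). These are subunits of the same enzyme, mitochondrial RNase P, and they differed in opposite directions without overlap of the groups. Hsd17b10 lies on chromosome X and Trmt10c on chromosome 16. Mtpap, the mitochondrial poly(A) polymerase, read 38.5, 39.5 and 38 against 22.7, 24 and 25.5 (log2 fold change -0.66, SE 0.07, limma adjusted p 6.88e-05).

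Of the 8 tested regulators of nuclear genes for mitochondrial proteins, 6 were higher and 0 lower (median 0.37). This is 75.0% called, near the 69.3% of all tested genes, while 34.6% of all tested genes were higher. The shares called in the lists before it were 40.7% for assembly, 50% for translation factors, 52.9% for the synthetases and 58.8% for transcription and RNA processing. Whether any of these lists differs from other genes was not tested. Myc, a transcription factor that drives ribosome production, read 81.5, 35.5 and 30.6 against 165, 152 and 172 (log2 fold change 1.84, SE 0.31, limma adjusted p 0.000771), and Pprc1, a coactivator of the PGC-1 family, read 17.2, 31.7 and 32.4 against 60.5, 59.5 and 51.2 (log2 fold change 1.10, SE 0.22, limma adjusted p 0.00198). Male replicate 4 was the highest of its label for Myc and the lowest for Pprc1, and neither gene overlapped between the groups. Ppargc1a was below the filter, at 0.671 to 0.991 in the libraries labelled male and 0.706 to 0.760 in those labelled female.

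**Figure D5:**
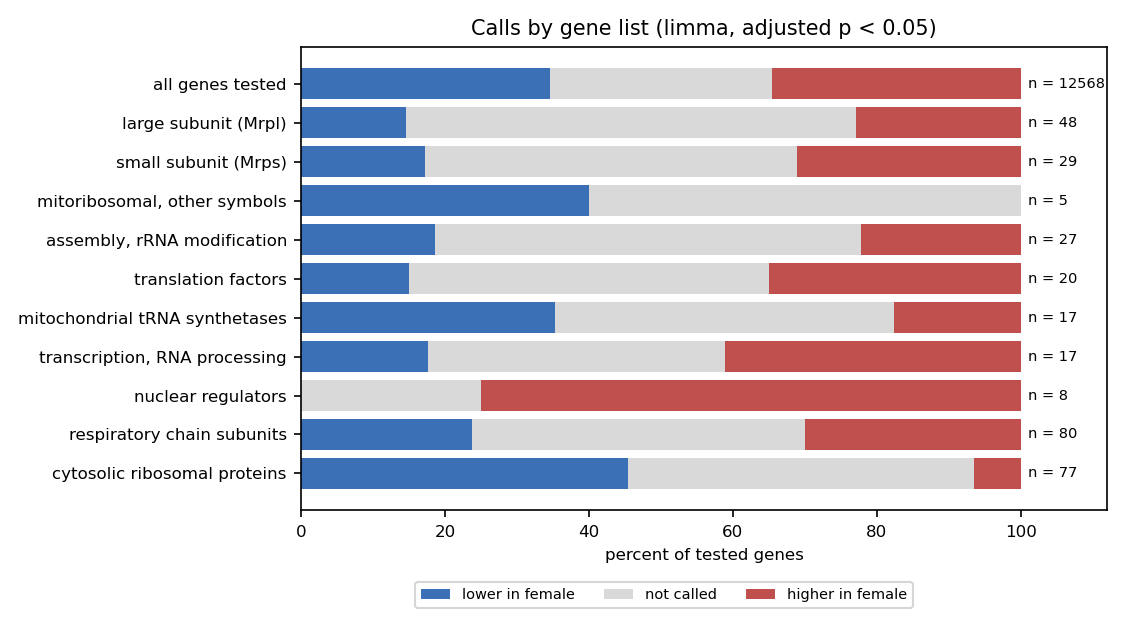
Percent of the tested genes of each list (x axis) that were lower, not called or higher in the libraries labelled female (limma, adjusted p under 0.05), with the number of tested genes per list. The bars of the Mrpl and Mrps genes show 37.5% and 48.3% called, against 69.3% of all tested genes.

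For comparison, 5 of 77 tested cytosolic ribosomal protein genes were higher and 35 lower (median -0.15, from -0.21 without male replicate 4 to -0.08 with quantile normalization), and 24 of 80 nuclear respiratory chain genes were higher and 19 lower (median 0.03, from -0.01 to 0.08 over the alternatives). The shares called were 51.9% and 53.8%, against 41.6% of the members and 69.3% of all tested genes (34.6% higher and 34.6% lower). The median absolute log2 fold change was 0.17 for the cytosolic and 0.22 for the respiratory chain genes, against 0.18 for the members and 0.46 for all. Small differences were thus not particular to the members. The number of lower cytosolic genes was 12 with quantile normalization, 57 without male replicate 4 and 17 to 23 without any 1 of the other libraries, and that of higher ones was 2 to 9 over the alternatives. The differences between these lists and the mitochondrial ribosomal proteins were not tested.

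In the authors' deposited table, 4 members had a false discovery rate under 0.05, against 25.8% of all 13595 genes. These were Mrpl41 with the authors' signed fold of 1.95, Mrps18b with 1.77, Mrps16 with -1.87 and Mrpl24 with -1.68 in the authors' deposited table. For the other 28 members called by limma the false discovery rate of the authors' deposited table was 0.05 or more, Mrpl45 (fold -1.59, false discovery rate 0.107) and Mrps18a (fold -1.69, false discovery rate 0.0657) among them.

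RefSeq gave 74 windows of 250 bases before the start, on GRCm38.p6, for 68 of the 77 members. The NRF1 letters GCGCA, any base and GCGC, on either strand, stood in 13.5% of the member windows, in 7.49% of 12984 windows of genes in the table and in 3.74% of all 32851 windows. For the ETS letters CCGGAAG the shares were 23.0%, 12.6% and 6.91%, and for the YY1 letters AAGATGGCG 2.70%, 1.10% and 0.606%. The E-box CACGTG stood in 9.46%, 8.05% and 6.02%, and the core of the hypoxia response element, ACGTG or GCGTG, in 58.1%, 54.9% and 38.6%. The E-box holds the letters ACGTG, so these 2 motifs overlap. Windows and not genes were counted, and Mrpl2 entered more than once through overlapping windows that each hold both motifs, which raises these 2 member shares. The ETS letters stood in 1 of 17 windows of members that were higher, 3 of 12 of those lower and 13 of 45 of those not called, and the NRF1 letters in 2, 1 and 7. These matches describe the letters in the windows and were given no test.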

How the data were processed

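Poly(A) RNA of 6 libraries (3 labelled male, 3 labelled female) was sequenced, and the submitters' processing notes name Bowtie2, RSEM, edgeR and the build mm39, with no versions. The deposited signal values are read counts normalised by the authors: each of the 6 columns held whole multiples of its smallest value above 0 (100% of values, to within 1.7e-09 of a whole read), so the reads could be recovered. How the authors set the factor per library and the genes they kept is not given in the sources used here. Per the file headers, a further deposited score column gives a signed linear fold (female against male) and the last deposited columns hold a p-value and a false discovery rate. A per-sample column without a sample occurred 0 times.

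As the files hold normalised values, log2(value + 1) was tested with limma 3.58.1 (R 4.3.3, trended eBayes), with sex as the only term. The 12568 genes that reached 1 in 3 or more libraries were tested, and Benjamini-Hochberg adjusted p-values over all of them were called under 0.05. Fold changes on this scale understate those of low genes. The alternatives were RLE size factors, quantile normalization, a pseudocount of 0.1, dropping the filter, a filter of 10 reads per library, edgeR 4.0.16 and DESeq2 1.42.0 on the recovered reads, a log2 fold change of at least 1, the replicate number as a block and each library left out in turn. A correction for GC content and length was added after seeing the data. The members and lists were chosen with earlier results of these data known. Named are, per subunit, up to 6 called members in each direction with groups that do not overlap, every member not called, the 5 ribosomal proteins on the list of those with other symbols, up to 2 genes in each direction from each other mitochondrial list, and the label checks. The remaining called members and genes that overlap a member were named after their values were seen. The values of Gadd45gip1 are not reported here. In 5 draws of simulated reads, limma recovered 199 to 200 of 200 genes changed by a log2 size of 1 among 12429 to 12449 tested, and 4.84% of its calls were false on average. Only these 200 genes differed in a draw, and by a larger log2 size than any member showed here. The draws therefore do not measure how well differences of the members' size are found, nor false calls where 69.3% of tested genes are called.

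Overlaps, shared 50-base words, lengths and chromosomes came from GENCODE M21 (GRCm38), matched by symbol for all 77 members. Sequences came from RefSeq (GRCm38.p6), a different build from the authors', and of each window only the longest stretch outside exons of the full GENCODE annotation was printed.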

Additional observations from a re-analysis of the deposited data

How the results depend on the processing

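The counts of higher and lower members stayed within 1.5 times the reported values under every alternative that kept all libraries, except the fold-change threshold. A log2 fold change of at least 1 left 0 members higher, 0 lower and 2589 genes called in all. Leaving out each library in turn gave 11 to 17 members higher, 7 to 20 lower and 7373 to 9113 genes called. The quantile fit gave 21 and 9, edgeR 18 and 14 (68.0% of all genes called), DESeq2 17 and 13 (65.8%), the replicate block 15 and 10, and the added GC and length correction 21 and 12. The replicate numbers did not pair the samples (correlations of the deviations of -0.094, -0.03 and -0.17), and the block ended 7 calls of members, those of Mrpl19, Mrpl33, Mrpl55, Mrps23 and Mrps36 (higher) and of Mrpl49 and Mrps30 (lower). With the block, 2 conserved large subunit and 2 mitochondria-specific small subunit genes were higher, and 1 mitochondria-specific large subunit gene was lower. Over the 32 called members, 260 values kept their call under alternatives with all libraries and 28 did not, 9 of these with the GC and length correction. The cause was not tested.

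No called member changed direction under these alternatives. Members near 0 did. Under quantile normalization the log2 values were Mrpl32 0.046, Mrpl34 0.068, Mrpl35 0.018, Mrpl48 0.036, Mrpl9 0.0060, Mrps14 0.051, Mrps18c 0.0065, Mrps31 0.050, Mrps33 0.035, Mrps35 0.023 and Mrps7 0.0057, and under the added GC and length correction Mrpl14 0.049, Mrpl15 -0.046, Mrpl34 0.16, Mrpl38 0.13, Mrpl50 -0.15, Mrpl53 0.0054, Mrps17 -0.062, Mrps5 -0.027, Mrps7 0.12 and Ptcd3 -0.13. Mrpl23 was -0.0046 with RLE size factors, -0.0089 with edgeR and -0.0085 with DESeq2. With libraries left out in turn the log2 ranges were Mrpl15 -0.025 to 0.055, Mrpl23 -0.052 to 0.067, Mrpl32 -0.039 to 0.037, Mrpl34 -0.12 to 0.056, Mrpl36 -0.071 to 0.29, Mrpl48 -0.047 to 0.016, Mrpl50 -0.033 to 0.067, Mrpl9 -0.097 to 0.022, Mrps12 -0.0014 to 0.19, Mrps14 -0.086 to 0.063, Mrps18c -0.17 to 0.0045, Mrps2 -0.00045 to 0.21, Mrps24 -0.10 to 0.12, Mrps26 -0.26 to 0.0042, Mrps31 -0.083 to 0.038, Mrps5 -0.013 to 0.080, Mrps7 -0.11 to 0.021, Ptcd3 -0.034 to 0.069 and Ddx3y -0.21 to 0.13. None of these was called with all libraries. Each member had at least 116 reads in every library, and the share of counting error in the spread between libraries was not computed.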
